A study of Homo sapiens with 6 samples.

Results

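Transcript levels of 10 genes of the Wnt and beta-catenin pathway were followed through 6 RNA-seq libraries in which the RNA helicase DDX3X had been depleted, supplied in excess or supplied in mutant form. Of the 10, 4 are parts of the pathway (CTNNB1, CSNK1E, CSNK1D and APC) and 6 are target genes that the pathway switches on (AXIN2, LEF1, TCF7, NKD1, SP5 and RNF43). They were picked by symbol among the 23204 gene symbols of the tables. Where a symbol had several RefSeq rows, the row with the highest mean level was kept.

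All libraries came from HEK293T cells, a line made from human embryonic kidney that carries the simian virus large T antigen, and each of the 6 groups was 1 library. In the siRNA arm, cells carried a control siRNA or an siRNA to DDX3X for 48 h, and no sorting was described. In the plasmid arm, cells took up 5 µg of a plasmid that encodes GFP (group GFP) or DDX3X fused to GFP in its wild type, T275M or G302V form, and the GFP-positive population was collected by flow cytometry after 32 h. The cells of the plasmid arm therefore still held their own DDX3X beside the transfected form, and expression was transient. A plot legend in the study lists the sequenced mutants as G302V and G325E, but the labels say T275M and G302V and were followed here. Because each group was 1 library, no spread between replicates could be measured and no p-value is given. Intervals below are exact (Clopper-Pearson) 95% intervals that cover the counting of reads only. Without molecular identifiers, reads cannot be taken as independent molecules.

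Recovered depth ran from 43720000 reads in G302V to 180870000 after DDX3X depletion, which was 2.68 times the depth of control siRNA. The targeted transcript followed the labels: DDX3X stood at 107 RPKM (read number over transcript length in kilobases and library size in units of 1000000 reads) in control siRNA and 31.3 in DDX3X siRNA, against 118.7 in GFP, 2894 in wild type, 3279 in T275M and 1906 in G302V. The labels give the cell type as neuronal. Of 12 neuronal markers, 4 reached 1 RPKM in all 6 libraries (TUBB3, NEFL, NEFM and GAD1), whereas 7 were under 1 RPKM in all 6, among them RBFOX3, MAP2 and DCX. NEFM was high, at 514 to 683 RPKM, as was NEFL, at 109 to 140, while TUBB3 lay at 5.60 to 9.28 and GAD1 at 2.82 to 4.31. Of 4 epithelial markers KRT8 (7.59 to 12.2 RPKM) and KRT18 (34.3 to 47.3) reached 1 RPKM in all libraries. Of 4 kidney markers none did, with PAX2, PAX8 and CDH16 under 1 RPKM in all 6 and LHX1 at 1 RPKM or more in 5. The cells are called HEK293T throughout.

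In canonical Wnt signalling a secreted Wnt ligand binds a Frizzled receptor together with the co-receptor LRP5 or LRP6, and Dishevelled proteins carry the signal into the cell. Without ligand, a destruction complex built on AXIN and APC holds the kinases GSK3 and casein kinase 1, which mark beta-catenin, the product of CTNNB1, for degradation. With ligand, beta-catenin accumulates as protein, enters the nucleus and joins TCF and LEF factors on the promoters of target genes, several of which encode feedback inhibitors. Casein kinase 1 epsilon phosphorylates Dishevelled, and DDX3X has been described as a partner that stimulates this kinase. RNA levels do not report the amount, phosphorylation or position of beta-catenin protein.

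TCF and LEF factors recognise a short motif, so the 250 bases before the annotated start sites of the members were searched on both strands for CTTTG followed by AA, AT, TA or TT, with the RefSeq promoter table of GRCh38.p14. The table held 11 start sites for 7 of the 10 members. CSNK1D, AXIN2 and NKD1 had no entry. Of the 11 windows, 3 held a match (27.3%), as did 12% of the 35116 windows of that length in the table. Shown are the windows of SP5, the member with the lowest transcript level and the most matches, of TCF7 at its downstream start site, where the match lay nearest the start, and of CTNNB1, the member with the highest mean level, in which these letters were not found. Each run ends at the base before the start site and reads 5′ to 3′ on the strand of the gene, with matches in capitals. The SP5 window is chr2:170715087-170715336 (plus strand), that of TCF7 is chr5:134123368-134123617 (plus strand) and that of CTNNB1 is chr3:41199255-41199504 (plus strand).
SP5: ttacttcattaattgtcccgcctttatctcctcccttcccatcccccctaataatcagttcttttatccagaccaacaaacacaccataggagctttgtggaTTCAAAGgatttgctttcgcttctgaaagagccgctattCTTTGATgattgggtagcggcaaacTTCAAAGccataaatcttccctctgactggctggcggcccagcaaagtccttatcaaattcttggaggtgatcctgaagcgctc
TCF7: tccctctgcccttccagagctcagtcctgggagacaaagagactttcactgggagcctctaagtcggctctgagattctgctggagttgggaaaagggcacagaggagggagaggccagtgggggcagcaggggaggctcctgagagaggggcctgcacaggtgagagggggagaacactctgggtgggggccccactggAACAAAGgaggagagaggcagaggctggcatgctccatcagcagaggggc
CTNNB1: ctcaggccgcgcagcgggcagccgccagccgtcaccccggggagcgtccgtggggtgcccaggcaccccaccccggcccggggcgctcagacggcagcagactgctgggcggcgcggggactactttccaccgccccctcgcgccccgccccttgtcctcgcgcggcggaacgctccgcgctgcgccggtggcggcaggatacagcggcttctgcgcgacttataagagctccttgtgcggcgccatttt
The matches in SP5 began 148, 109 and 84 bases before the start site, and 3 or more matches stood in 0.122% of all windows. The match in TCF7 began 50 bases before the start, and the third window with a match, of CSNK1E, held it 220 bases before a start at the upstream of its 2 entries. G and C made up 45.6% of the SP5 window, 62% of the TCF7 window and 74.4% of the CTNNB1 window. A match describes the letters only.

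The members spanned more than 3 orders of magnitude in level, and 3 of the 4 parts (CTNNB1, CSNK1E and CSNK1D) stood above all targets. CTNNB1 (chr3:41236232-41301587, plus strand, GRCh37) was at 177 RPKM in control siRNA, 166 in DDX3X siRNA, 151 in GFP, 154 in wild type, 156 in T275M and 142 in G302V. It was highest in the siRNA arm, and all 4 plasmid libraries lay below both siRNA libraries. CSNK1E (chr22:38686697-38714089, minus strand), the kinase that acts on Dishevelled, was at 133 RPKM in control siRNA, 139 in DDX3X siRNA, 148 in GFP, 159 in wild type, 161 in T275M and 158 in G302V. Its order was the opposite, with both siRNA libraries below all 4 plasmid libraries. CSNK1D (chr17:80196899-80231576, minus strand), a close paralog of CSNK1E, was at 41.4 RPKM in control siRNA, 43.8 in DDX3X siRNA, 52.0 in GFP, 56.9 in wild type, 53.6 in T275M and 47.2 in G302V, so its siRNA libraries were again the 2 lowest. No window of 50 bases was shared between the transcripts of any members, CSNK1E and CSNK1D included. APC (chr5:112043215-112181936, plus strand), the scaffold of the destruction complex, was at 6.50 RPKM in control siRNA, 5.83 in DDX3X siRNA, 4.22 in GFP, 4.78 in wild type, 4.78 in T275M and 4.86 in G302V. As with CTNNB1, both siRNA libraries lay above the plasmid libraries.

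Among the target genes, the transcription factors were the most abundant. LEF1 (chr4:108968701-109090112, minus strand) was at 13.1 RPKM in control siRNA, 13.2 in DDX3X siRNA, 13.0 in GFP, 13.9 in wild type, 15.3 in T275M and 14.9 in G302V. TCF7 (chr5:133450372-133487556, plus strand) was at 7.22 RPKM in control siRNA, 7.56 in DDX3X siRNA, 8.93 in GFP, 7.84 in wild type, 9.29 in T275M and 8.87 in G302V. Both mutants thus lay above wild type for these 2 genes. AXIN2 (chr17:63524681-63557766, minus strand), an inducible scaffold that feeds back on the pathway and a usual readout of it, was at 2.66 RPKM in control siRNA, 2.93 in DDX3X siRNA, 2.90 in GFP, 3.32 in wild type, 3.70 in T275M and 2.99 in G302V. RNF43 (chr17:56431037-56494956, minus strand), a ubiquitin ligase that removes Frizzled from the membrane, was at 3.32 RPKM in control siRNA, 3.29 in DDX3X siRNA, 2.85 in GFP, 3.18 in wild type, 3.31 in T275M and 2.62 in G302V. Of the 4 plasmid libraries, T275M was the highest for both of these feedback genes. NKD1 (chr16:50582307-50683160, plus strand), an inhibitor that binds Dishevelled, lay between 1.04 RPKM in DDX3X siRNA and 1.37 in T275M. SP5 (chr2:171571847-171574588, plus strand), a zinc-finger factor, was close to background, at 0.0609 RPKM in control siRNA, 0.0596 in DDX3X siRNA, 0.0843 in GFP, 0.0982 in wild type, 0.108 in T275M and 0.0587 in G302V. Those values rest on 5 to 21 reads, and all 6 counting intervals of SP5 share a common range.

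**Figure D1:**
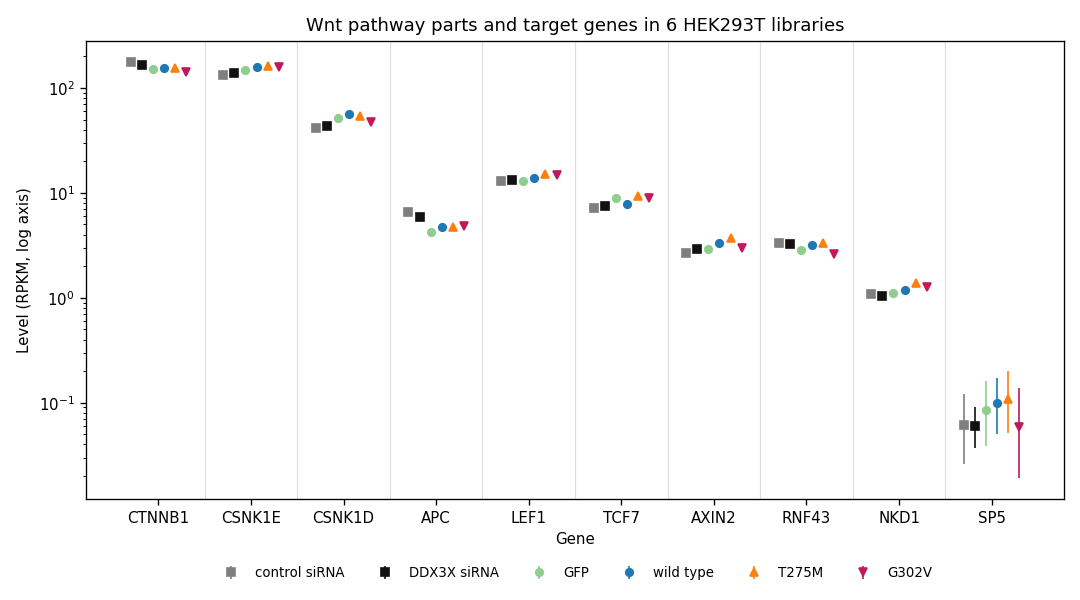
Level of each member in each of the 6 libraries, in RPKM on a log axis, with each point 1 library and each bar its exact 95% counting interval (hidden by the point where it is narrow). The 6 points of a gene lie close together beside the distance between genes: CTNNB1 stays between 142 and 177 RPKM and AXIN2 between 2.66 and 3.70, while SP5 lies between 0.0587 and 0.108 with wide bars.

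The order of the members by level was nearly fixed. CSNK1D, LEF1, TCF7 and APC held the third to the sixth place, and NKD1 and SP5 the last 2 places, in all 6 libraries. CTNNB1 stood above CSNK1E in control siRNA, DDX3X siRNA and GFP and below it in wild type, T275M and G302V. In GFP the intervals of these neighbours overlapped, at 150.6 (CTNNB1) and 148.4 RPKM (CSNK1E). AXIN2 and RNF43 also changed places: RNF43 was above AXIN2 in both siRNA libraries, and AXIN2 was above RNF43 in the 4 plasmid libraries, where their intervals overlapped. The ratio of the highest to the lowest library was 1.54 for APC, 1.39 for AXIN2, 1.24 for CTNNB1 and 1.21 for CSNK1E.

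Some reads could belong to a neighbour. The library kit does not mark strand, and the exons of TCF7 share 210 bases, 2.08% of its annotated exon bases, with the antisense gene SKP1, which was at a mean of 74.3 RPKM. CSNK1D shares exon bases with the antisense genes ENSG00000280407 (1262 bases, 11.5% of its exon bases) and SLC16A3 (482 bases, mean level 0.24 RPKM). LEF1 shares them with LEF1-AS1 (279 bases) and RNF43 with TSPOAP1-AS1 (345 bases). On the same strand, CSNK1E shares 1316 bases (18.5% of its exon bases) with the readthrough gene TPTEP2-CSNK1E. AXIN2 shares 1316 bases (25.3%) with ENSG00000266076, and RNF43 shares 4326 bases (68.4%) with ENSG00000285897. How many reads of a member came from a neighbour was not measured. That number depends on the level of the neighbour as well as on the shared bases. The shares also refer to all annotated exons of a gene and not to the row used, so they do not bound the uncertainty of a level. For the members with several RefSeq rows, the log2 ratios below differed between rows by at most 0.06, the widest being LEF1 in G302V against T275M.

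Depletion of DDX3X was examined first, with DDX3X itself 1.74 lower on the log2 scale, written here and below as the difference of log2(RPKM + 1), which understates changes of genes near or below 1 RPKM. None of the 9 members that passed the filter (1 RPKM and 10 reads in at least 1 of the 2 libraries) lay past 2-fold or past 1.5-fold, and SP5 did not pass. Of all 12694 genes tested, 0.11% lay past 2-fold and 2.05% past 1.5-fold, so a count of 0 in 9 is near that background. CTNNB1 was lower by a log2 ratio of -0.09 (interval -0.11 to -0.08) and APC by -0.14 (-0.18 to -0.09). CSNK1E was higher by 0.07 (0.05 to 0.09) and CSNK1D by 0.08 (0.05 to 0.11). Of the targets, AXIN2 was higher by 0.10 (0.02 to 0.19), and the intervals of LEF1 (0.01), TCF7 (0.06), NKD1 (-0.03) and RNF43 (-0.01) held 0. In all, 3 members had an interval above 0 and 2 below it, against 32.8% and 40.1% of all genes. After median-ratio scaling of the libraries these became 5 above (AXIN2, CSNK1D, CSNK1E, LEF1 and TCF7) and 1 below (APC), against 45.1% and 28.1% of all genes, and the interval of CTNNB1 held 0. The parts had a median of -0.01 and the targets 0.01, beside -0.02 for all genes. DDX3X siRNA was the deeper library, as given above, and the log2 ratio of all genes ran with row length (Spearman's rho 0.30 across genes, which are not independent). The tenth of genes nearest in row length had a median of 0.15 for APC and NKD1, above both members. It was -0.05 for CSNK1E and LEF1, -0.01 for CSNK1D and CTNNB1, -0.03 for TCF7 and 0.00 for AXIN2 and RNF43. The part of depth or length in these small differences was not tested.

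**Figure D2:**
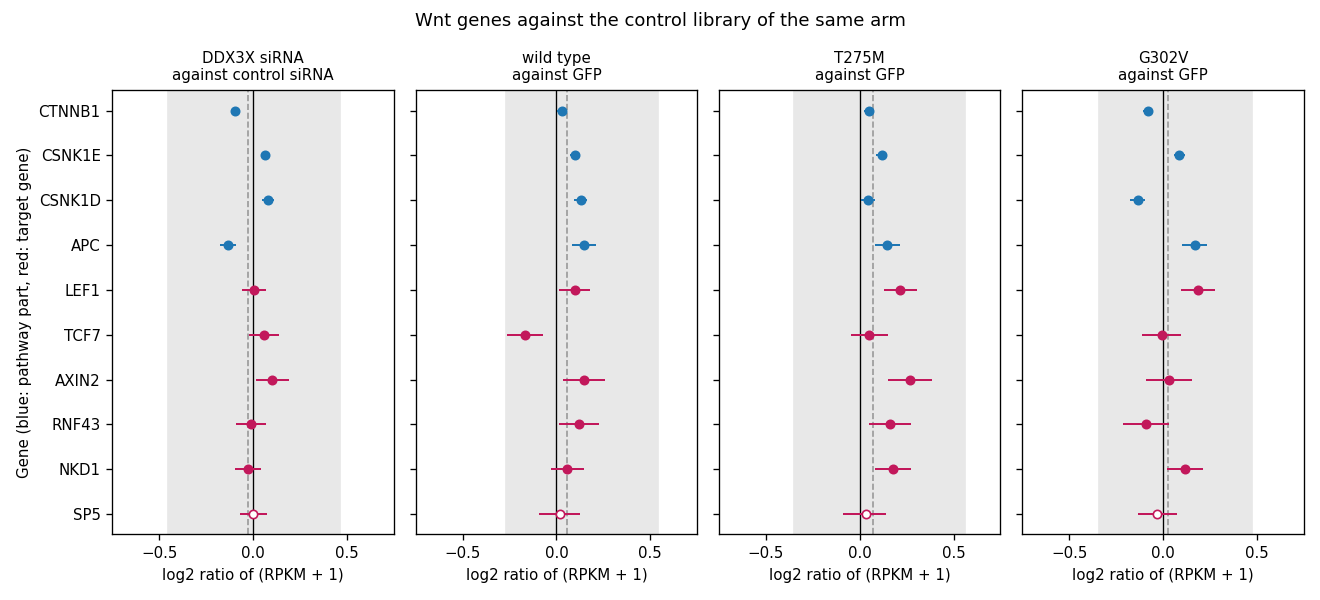
Log2 ratio of (RPKM + 1) for each member against the control library of its arm, one panel a comparison. Points are single differences of 2 libraries with exact 95% counting intervals, blue for parts and red for targets, open for SP5, which did not pass the filter. The grey band spans the central 95% of all genes tested and the dashed line is their median. Every point of the 4 panels lies inside the band.

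Excess wild-type DDX3X was compared with GFP alone. DDX3X was higher by a log2 ratio of 4.60, and none of the 9 members lay past 2-fold (0.248% of all genes) or 1.5-fold (2.26%). Intervals lay above 0 for 7 members and below 0 for 1, against 41.1% and 21.3% of all genes. That count rested on the scaling: after median-ratio scaling 1 member (APC) was above 0 and 2 (CTNNB1 and TCF7) below, against 23% and 38.8% of all genes. APC (0.15), AXIN2 (0.15), CSNK1D (0.13) and RNF43 (0.12) were the highest. TCF7 was the 1 member that was lower, at -0.17 (interval -0.26 to -0.07), and 8.45% of all genes tested were at or below that value. CSNK1E (0.10) and CTNNB1 (0.03) were higher in RPKM, but after that scaling they came to -0.00 and -0.07. It moved the median of all genes from 0.05 to -0.04. The parts had a median of 0.11 and the targets 0.10.

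With the T275M form, DDX3X was higher than in GFP by 4.78, and 8 of the 9 members had an interval above 0 and 0 members one below it, against 44.2% and 23.4% of all genes. This count also rested on the scaling, since median-ratio scaling left 3 members above 0 (AXIN2, LEF1 and NKD1) and put 2 below (CSNK1D and CTNNB1), against 28.7% and 36.4% of all genes. No member was past 2-fold (0.372% of all genes) or 1.5-fold (2.73%). AXIN2 was at 0.27 (interval 0.15 to 0.38), the largest member difference of the 7 comparisons within an arm, LEF1 at 0.22 (0.13 to 0.30), NKD1 at 0.18 (0.08 to 0.27) and RNF43 at 0.16 (0.05 to 0.28). The AXIN2 value stood at the 81.9th percentile of all genes tested. TCF7, at 0.05, had an interval that held 0. The targets had a median of 0.18 and the parts 0.08, beside 0.07 for all genes. In the 100-gene pathway list described below, the median of all its target genes was 0.16. Antagonists had 0.22, ligands 0.21, destruction-complex genes 0.17 and nuclear effectors 0.16. Transducers had 0.14, receptors 0.11 and ligand secretion genes 0.01. After median-ratio scaling the signs of CTNNB1 (0.05 before, -0.05 after), CSNK1D (0.04 and -0.05) and TCF7 (0.05 and -0.04) turned, while AXIN2 came to 0.19. Log2 ratios of all genes ran with row length (Spearman's rho 0.33 across genes), and the tenth of genes of like length had a median of 0.16 for NKD1 and APC, close to the members' own 0.18 and 0.15, and of 0.12 for AXIN2. For NKD1, near 1 RPKM, the log2(RPKM + 1) scale understates the change, and its plain RPKM ratio was 1.25. The part of length was not tested.

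With the G302V form the DDX3X transcript was 3.99 above GFP, less than with the other forms. Members were mixed: LEF1 (0.19, interval 0.10 to 0.28), APC (0.17, 0.10 to 0.24), NKD1 (0.12, 0.02 to 0.21) and CSNK1E (0.09, 0.06 to 0.11) were higher, and CSNK1D (-0.14, -0.18 to -0.09) and CTNNB1 (-0.08, -0.11 to -0.05) were lower. The intervals of AXIN2 (0.03), TCF7 (-0.01) and RNF43 (-0.09) held 0. The counts were thus 4 above and 2 below 0, where all genes gave 35.1% and 26.3%, and after median-ratio scaling 3 above (APC, CSNK1E and LEF1) and 3 below (CSNK1D, CTNNB1 and RNF43), where all genes gave 28.9% and 33.1%, with 0 of 9 members past 2-fold (0.305% of all genes) or 1.5-fold (1.86%). The median of the parts was 0.00 and that of the targets 0.03, beside 0.03 for all genes. Of the 8 comparisons, this one had the strongest relation of log2 ratio with row length (Spearman's rho 0.44 across genes). Genes of like length to APC and NKD1 had a median of 0.21, above both members on the log2(RPKM + 1) scale, whereas those of like length to LEF1 had -0.00 and those of like length to CSNK1D and CTNNB1 0.05. That scale understates the change of NKD1, which lay near 1 RPKM and had a plain RPKM ratio of 1.16, so its place beside the median is uncertain. The part of length was not tested. The 3 comparisons of the plasmid arm share the GFP library, so a member's GFP level enters all 3 of its values.

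Mutants were then set against wild type, which leaves GFP out but puts the 1 wild-type library into both comparisons. In T275M, 4 of the 5 targets tested had an interval above 0: TCF7 at 0.22 (0.12 to 0.32), LEF1 at 0.12 (0.04 to 0.20), AXIN2 at 0.12 (0.01 to 0.23) and NKD1 at 0.12 (0.03 to 0.21). RNF43 was at 0.04 with an interval that held 0. Of the parts, CSNK1D was lower, at -0.08 (-0.12 to -0.05), and CTNNB1 (0.02), CSNK1E (0.02) and APC (0.00) had intervals that held 0. Among all genes 24% lay above 0 by this rule and 20.5% below, against 4 and 1 of the 9 members, and median-ratio scaling kept these 5 genes (24.9% and 19.6% of all genes). The median of the targets was 0.12 and that of the parts 0.01, beside 0.00 for all genes. In the 100-gene pathway list described below, the median of all its target genes was 0.12. It was 0.10 for transducers, 0.10 for destruction-complex genes and 0.10 for extracellular antagonists. Receptors had 0.05, ligands 0.05, nuclear effectors 0.03 and ligand secretion genes -0.04. TCF7 stood at the 96.3th percentile of all genes. Its wild-type level, 7.84 RPKM, was the lowest of the plasmid arm. Against GFP, the interval of TCF7 held 0 with both mutants (0.05 in T275M and -0.01 in G302V). In T275M against wild type, no member was past 2-fold (0.0771% of all genes) or 1.5-fold (0.362%). Log2 ratios of all genes ran with row length in this comparison (Spearman's rho 0.42 across genes), and the genes of like length had a median of 0.01 for TCF7, -0.01 for LEF1, 0.04 for AXIN2 and 0.09 for NKD1, the last of which is near its own 0.12. The log2(RPKM + 1) scale again understates the change of NKD1, whose plain RPKM ratio was 1.16. The part of length was not tested.

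In G302V, against the same wild-type library, TCF7 (0.16, interval 0.06 to 0.26) and LEF1 (0.09, 0.00 to 0.17) were higher. The lower bound of LEF1 was just above 0. CSNK1D was lower by -0.27 (-0.31 to -0.23), RNF43 by -0.21 (-0.33 to -0.09) and CTNNB1 by -0.11 (-0.13 to -0.08). AXIN2 was at -0.12 with an interval that held 0. That gave 2 members above and 3 below 0, against 26.2% and 35.8% of all genes, or 4 (APC, CSNK1E, LEF1 and TCF7) and 3 after median-ratio scaling (35.3% and 25.5%), and 0 past 2-fold (0.185%) or 1.5-fold (1.8%). The median of the targets was 0.06 and that of the parts -0.06, beside -0.03 for all genes. Between the mutants, G302V against T275M, no member had an interval above 0 and 5 had one below it, where all genes gave 19.7% and 31.5%. After median-ratio scaling there were 0 and 4, where all genes gave 31.1% and 20.3%. RNF43 was lower by -0.25 (-0.38 to -0.13), AXIN2 by -0.24 (-0.36 to -0.11), CSNK1D by -0.18 (-0.22 to -0.14), CTNNB1 by -0.13 (-0.15 to -0.10) and CSNK1E by -0.03 (-0.06 to -0.00), the last of which became 0.03 after median-ratio scaling. Here the median of the targets was -0.06, that of the parts -0.08 and that of all genes -0.03. RNF43 and AXIN2 stood at the 9.24th and 10.8th percentiles. Again no member passed 2-fold (0.178% of all genes) or 1.5-fold (1.23%). The libraries also differed in the amount of the transfected transcript. For DDX3X, G302V was at -0.60 against wild type and at -0.78 against T275M. Log2 ratios of all genes ran with row length in G302V against wild type (Spearman's rho 0.35 across genes). In G302V against T275M they ran with GC content (0.30, known for 87% of genes). The part of transcript amount, length or composition in these differences was not tested.

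**Figure D3:**
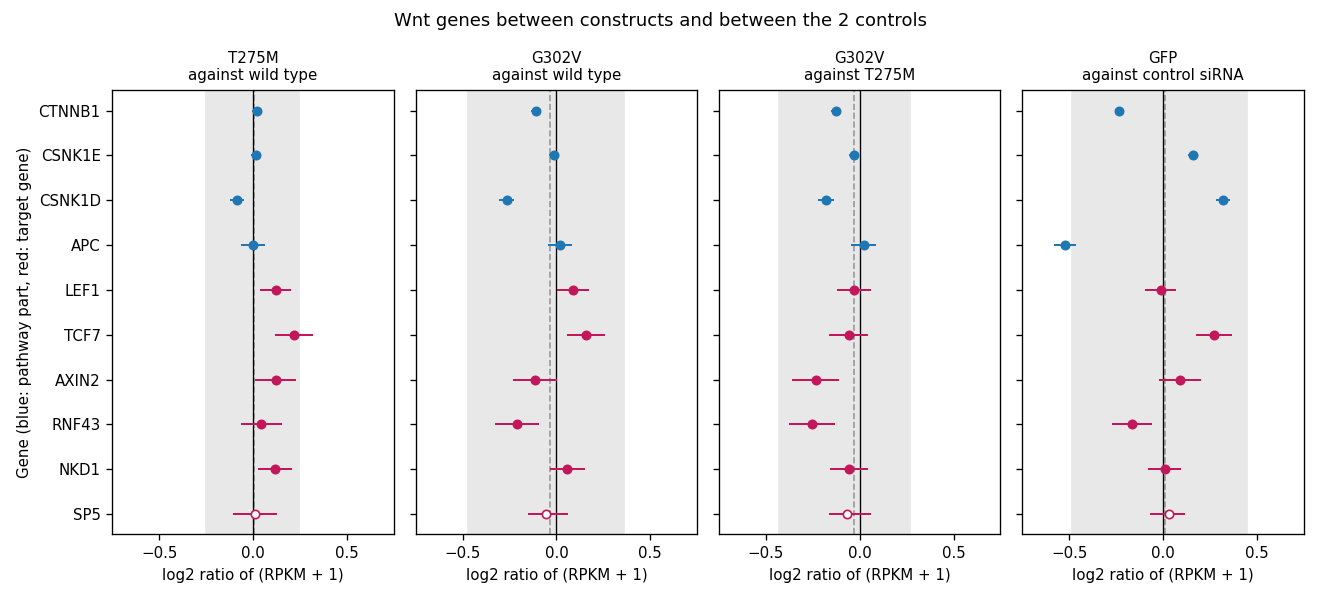
Log2 ratio of (RPKM + 1) for each member between constructs and between the controls of the 2 arms, drawn as in the plot against the controls. In T275M against wild type the targets lie to the right, with TCF7 at 0.22. In GFP against control siRNA, APC, at -0.52, is the 1 member outside the grey band.

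For each of the 4 parts, the 2 control libraries differed by more than the libraries of any comparison within an arm. In GFP against control siRNA, APC was at -0.52 (interval -0.58 to -0.47) and CTNNB1 at -0.23 (-0.26 to -0.21), while CSNK1D was at 0.32 (0.28 to 0.36) and CSNK1E at 0.16 (0.13 to 0.19). The APC value was at the 1.76th percentile of all genes, and as a plain ratio of RPKM, with no pseudocount, control siRNA was 1.54 times as high. For CSNK1D the percentile was 94.2. Of the targets, TCF7 was higher in GFP by 0.27 and RNF43 lower by -0.17, and LEF1, AXIN2 and NKD1 had intervals that held 0. The median of the targets was 0.01 and that of the parts -0.04, beside 0.01 for all genes. On the log2(RPKM + 1) scale no member was past 2-fold (0.503% of all genes) or 1.5-fold (2.36%), and 3 lay above and 3 below 0, against 33.2% and 31.3% of all genes, with the same counts after median-ratio scaling (35.7% and 29.3%). These controls differ in reagent, time and sorting, which cannot be told apart here. APC is also the longest row among the members (10730 bases), log2 ratios of all genes ran against length (Spearman's rho -0.24) and with GC content (0.38, known for 87.2% of genes), and the tenth of genes of like length had a median of -0.16. The part of length and composition was not tested.

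Over the 8 comparisons, the 9 members that passed the filter gave 72 log2 ratios, of which 48 (66.7%) had a counting interval off 0, near the 60.8% of the 102891 ratios of all genes, and 1, that of APC between the controls, lay outside the central 95% of all genes. The 63 ratios within an arm corresponded to plain RPKM ratios between 0.79 and 1.28.

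The rest of the pathway was described with a list of 100 genes by role, the 10 members included, all of which had a row in the tables. Genes that act inside the cell were the most widely expressed. All 8 transducers and all 14 nuclear effectors were at 1 RPKM or more in every library, as were 10 of 11 destruction-complex genes and 13 or 14 of 15 receptors. Of 23 ligands and R-spondins, 4 or 5 reached 1 RPKM, and of 14 extracellular antagonists 3 to 6 did. The most abundant gene of each role, by mean over the libraries, was WNT5A among ligands (4.76 to 6.77 RPKM), WLS, a carrier of Wnt proteins to the membrane (32.0 to 41.5), LRP5 among receptors (17.3 to 25.8), KREMEN1 among antagonists (6.67 to 8.09), CSNK1E among transducers, the kinase GSK3A in the destruction complex (55.3 to 66.0), CTNNB1 among nuclear effectors and MYC, a growth regulator and common target, among targets (72.2 to 119.3).

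On the log2(RPKM + 1) scale, no gene of the list that passed the filter was past 2-fold in any of the 8 comparisons. At 1.5-fold there were few. In DDX3X siRNA against control siRNA, 68 of the 100 passed the filter, with a median of 0.04 beside -0.02 for all genes. DVL1, a Dishevelled gene and so a substrate of casein kinase 1 epsilon, was at 85.0 RPKM after depletion and 47.3 in the control, a log2 ratio of 0.83 (interval 0.80 to 0.86) at the 99.8th percentile of all genes. ZNRF3, a ubiquitin ligase that acts on Frizzled as its paralog RNF43 does, was at 8.27 and 5.10 RPKM, a log2 ratio of 0.60 (0.55 to 0.66). No other gene of the list was past 1.5-fold, so the list gave 2 of 68 (2.94%), near the 2.05% of all genes. The tenth of genes nearest to DVL1 in length had a 95th percentile of 0.33 and that nearest in GC content 0.44, whereas for ZNRF3 the genes of like length reached 0.53 at theirs, and the part of length or composition was not tested. Intervals lay above 0 for 31 of the 68 genes and below 0 for 16, where all genes gave 32.8% and 40.1%. By role, they lay above and below 0 for 2 and 0 of 5 ligands, 0 and 2 of 2 ligand secretion genes, 8 and 1 of 13 receptors, 0 and 2 of 5 antagonists, 6 and 1 of 8 transducers, 7 and 2 of 10 destruction-complex genes, 6 and 5 of 14 nuclear effectors and 2 and 3 of 11 target genes. Counts by role were taken without median-ratio scaling, under which the shares of all genes became 45.1% and 28.1%.

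In the plasmid arm, T275M against GFP gave TLE2, a co-repressor that binds TCF factors (6.57 and 3.95 RPKM, log2 ratio 0.61, interval 0.48 to 0.75), and FZD6, a Frizzled receptor (8.01 and 4.99 RPKM, 0.59, 0.49 to 0.69), out of 70 genes tested. G302V against GFP gave AXIN1, the scaffold of the destruction complex (26.9 and 17.6 RPKM, 0.58, 0.52 to 0.65), out of 67. Wild type against GFP gave no gene out of 68, with FZD6 just under the threshold at 0.57. The comparisons between constructs gave no gene out of 69 or 70. Between the controls MYC was at 119.3 RPKM in GFP and 79.0 in control siRNA (0.59), the 1 gene past 1.5-fold out of 69. As shares these are 2.86% in T275M, 1.49% in G302V and 1.45% between the controls, near the 2.73%, 1.86% and 2.36% of all genes. Beside DVL1 and ZNRF3, these are all the genes of the list past 1.5-fold on the log2(RPKM + 1) scale. Without median-ratio scaling, 33 intervals of the list lay above 0 and 12 below in wild type against GFP (41.1% and 21.3% of all genes). T275M against GFP gave 50 and 3 (44.2% and 23.4%), and G302V against GFP 37 and 7 (35.1% and 26.3%). After that scaling the list medians were 0.00, 0.07 and 0.08 in that order, beside -0.04, -0.02 and -0.01 for all genes.

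Across all 6 libraries, the genes that passed 1.5-fold within an arm followed different orders. DVL1 was at 47.3 RPKM in control siRNA, 85.0 in DDX3X siRNA, 53.2 in GFP, 57.3 in wild type, 66.2 in T275M and 71.9 in G302V. Both control libraries were thus the lowest, and the depleted library the highest. AXIN1 was at 16.0 RPKM in control siRNA, 22.7 in DDX3X siRNA, 17.6 in GFP, 22.6 in wild type, 25.6 in T275M and 26.9 in G302V, again lowest in the 2 controls. Its log2 ratio was 0.48 on depletion and 0.34, 0.51 and 0.58 with wild type, T275M and G302V against the shared GFP library. ZNRF3 was at 8.27 RPKM in DDX3X siRNA and between 5.10 and 6.12 in the other 5 libraries, which set the depleted library apart. FZD6 was lowest in GFP, at 4.99 RPKM, and between 6.51 and 8.15 in the other 5. TLE2 was at 2.78 RPKM in control siRNA, 3.39 in DDX3X siRNA, 3.95 in GFP, 4.65 in wild type, 6.57 in T275M and 6.04 in G302V, so that the 2 mutants were the highest.

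The filter hides genes under 1 RPKM, and most of the extracellular antagonists are there. They were therefore compared by reads, with a rule chosen after their values were seen: under 1 RPKM in both libraries, 10 reads or more in at least 1, and an exact counting interval of the plain ratio past 2-fold. Of 17 to 22 such genes of the list in a comparison, 0 to 2 met it, and they were 3 genes in all, each of which encodes a secreted protein that binds Wnt proteins or their co-receptors. SFRP4, a soluble Frizzled-like protein, had 21 reads in control siRNA, 36 in DDX3X siRNA, 13 in GFP, 87 in wild type, 82 in T275M and 18 in G302V. In RPKM these are 0.105, 0.0669, 0.0797, 0.467, 0.58 and 0.139, so wild type and T275M stood above the other 4 libraries. The ratio to GFP was 5.85 in wild type (interval 3.25 to 11.4) and 7.28 in T275M (4.03 to 14.2), and G302V came to 0.297 of wild type (0.168 to 0.497) and 0.239 of T275M (0.135 to 0.401). Of all genes compared in this way, 2.57% met the rule in wild type against GFP, 2.83% in T275M against GFP, 1.39% in G302V against wild type and 1.03% in G302V against T275M. On depletion of DDX3X, where 0.983% of such genes met it, WIF1, a secreted Wnt inhibitor, went from 0.265 to 0.0666 RPKM (40 and 27 reads, ratio 0.252, 0.149 to 0.421), and DKK2, a ligand of LRP co-receptors, from 0.0611 to 0.0046 RPKM (15 and 3 reads, ratio 0.0753, 0.0139 to 0.264). WIF1 had 12 to 26 reads in the plasmid libraries and DKK2 had 3 to 17. No gene of the list met the rule in G302V against GFP (0.745% of all such genes), T275M against wild type (0.157%) or GFP against control siRNA (0.564%). SP5, the 1 member in this range, did not meet it wherever its reads reached 10. NOTUM, another antagonist, did not meet it either. It was at 0.321 RPKM in GFP, 0.769 in wild type, 0.854 in T275M and 0.702 in G302V (39, 107, 90 and 68 reads). In the siRNA arm NOTUM was at 0.314 RPKM in control siRNA and 0.187 in DDX3X siRNA (47 and 75 reads).

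**Figure D4:**
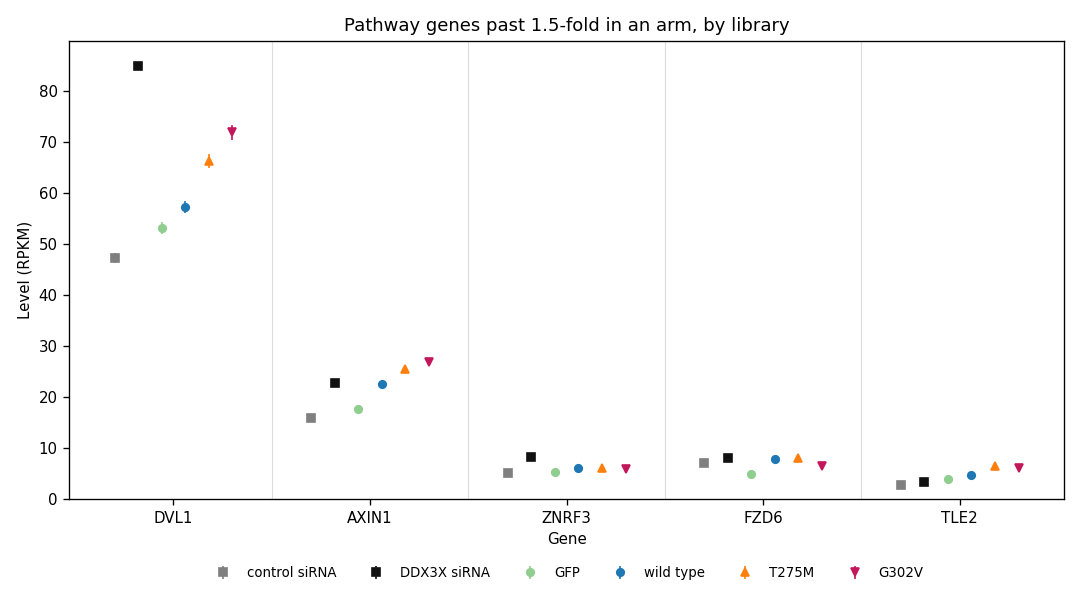
Levels in RPKM, on an axis from 0, of the 5 genes of the list, none of them a member, that passed 1.5-fold within an arm. Points are single libraries with exact 95% counting intervals. DVL1 spans 47.3 to 85.0 RPKM and AXIN1 16.0 to 26.9, both with their lowest values in the 2 control libraries.

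**Figure D5:**
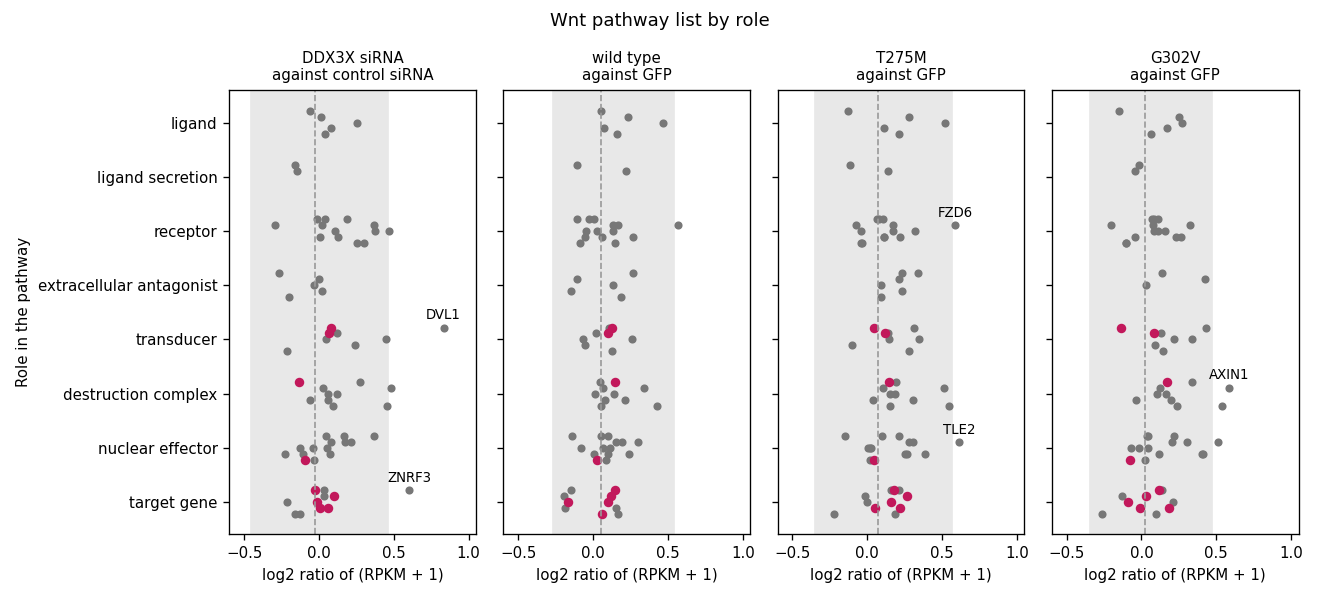
Log2 ratio of (RPKM + 1) of the genes of the pathway list that passed the filter, by role, in the 4 comparisons with a control. Members are red, other genes grey, the grey band spans the central 95% of all genes, the dashed line is their median, and genes past 1.5-fold are named. Most genes lie inside the band, and the named ones are not members.

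For each member at 1 RPKM or more in all libraries, the genes with the most similar profile over the 6 libraries were found by Pearson's r of log2(RPKM + 1), among the 8704 or 8705 other genes at 5 RPKM or more in all 6. KBTBD6 (r = 0.995) and DERL1 (0.992) were nearest to CTNNB1, and C9orf21 (0.997) and DDX26B (0.997) to CSNK1E. KIF18B (0.990) and METTL22 (0.988) were nearest to CSNK1D, CALCB (0.995) and YIPF3 (0.994) to APC, and PHF13 (0.992) and CRKL (0.988) to LEF1. For TCF7 they were PREP (0.985) and UBE2O (0.977), for AXIN2 TBC1D22B (0.984) and GSG2 (0.983), for NKD1 WSB1 (0.996) and BTG1 (0.991), and for RNF43 VEZT (0.992) and ST7L (0.974). The 6 points include the 2 arms and 1 library much deeper than the rest, and many genes came close: 29 (RNF43) to 480 (CSNK1E) genes had r of 0.9 or more. No member of the list was among the 2 nearest genes of another. APC, AXIN2, NKD1, SP5 and RNF43 could not be, since they did not reach 5 RPKM in all 6 libraries. With 2 places among so many genes, the absence of the others does not tell whether members vary together.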

How the data were processed

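RNA-seq of 6 HEK293T libraries (1 per group) was analysed from the tables deposited by the authors, which hold RPKM, as the file headers state. The study's methods call this normalisation FPKM. Per the submitters' processing notes and the methods, adapters were trimmed with cutadapt and the authors aligned reads with BWA 0.5.5 to hg19, RefSeq, exon junctions and AceView, removed duplicates and divided reads per gene by length and total reads. Isoform rows of a gene therefore share reads.

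Here the product of RPKM and row length took whole multiples of a fixed step (100% of checked low rows within 0.1), which gave the reads per row and the library depth. For each of the 39618 rows the symbol was used as given, and the row with the highest mean RPKM stood for a symbol. Differences of log2(RPKM + 1) were taken for 8 pairs of libraries. A gene entered with 1 RPKM or more and 10 reads or more in at least 1 of the 2 libraries, and thresholds were 2-fold (log2 ratio 1) and about 1.5-fold (0.58). For the 95% interval of a ratio, the exact Clopper-Pearson limits of the first library's share of both libraries' reads of that gene were carried to this scale. Groups came from the sample labels. The members, the pathway list, the markers and the tests were chosen with earlier results of these data known. Named beside the members were, per comparison, up to 3 other genes of the list furthest from 0 past 1.5-fold, the most abundant gene of each role, and the 2 genes nearest in profile to a member. Other genes and values discussed (levels across all libraries, percentiles, genes under 1 RPKM) were chosen after their values were seen. Gene positions and exon overlaps came from GENCODE 44 on GRCh37 and promoters from RefSeq on GRCh38.p14, and no coordinate was moved between builds. Alternatives were pseudocounts of 0.1 and 10 RPKM or none, a filter of 1 read or of 10 RPKM, median-ratio scaling, scaling to the library total without length, summed isoform rows, the 1.5-fold threshold and an interval that leaves out a ratio of 1. The steps were tested on simulated data. Python 3.11.15, numpy 2.4.6, pandas 2.3.3, scipy 1.17.1 and matplotlib 3.10.9 were used.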

Additional observations from a re-analysis of the deposited data

How the results depend on the processing

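The count of members past 2-fold was 0 in all 8 comparisons and stayed 0 under each of the 10 alternatives. Not all of these could raise it. The pseudocount of 10 RPKM, the filter of 10 RPKM and the interval that leaves out a ratio of 1 can only lower such a count. The filter of 1 read adds only SP5 to the members, whose levels are too low to reach 2-fold with log2(RPKM + 1). The pathway list, with 0 genes past 2-fold, had 2 past 1.5-fold in DDX3X siRNA against control siRNA, 2 in T275M against GFP, 1 in G302V against GFP and 1 in GFP against control siRNA. With values scaled to the library total and not to length, 1 gene, SFRP4, was past 2-fold in T275M against GFP, where 76 genes passed the filter in place of 70. Length cancels in a ratio of the same row, so this setting acts through the pseudocount and the filter. Another pseudocount, filter or unit cannot turn the sign of the log2 ratio of a row, so these settings do not test the signs. Median-ratio scaling turned the sign of 10 of 72 member ratios, of which 5 had an interval off 0, and summing isoform rows turned 3, of which 0 did. Median-ratio scaling, in a check added after seeing the data, moved the number of members with a counting interval above 0 from 3 to 5 in DDX3X siRNA against control siRNA, from 7 to 1 in wild type against GFP, from 8 to 3 in T275M against GFP and from 2 to 4 in G302V against wild type. Without a pseudocount the largest member difference, APC between the controls, went from -0.52 to -0.63. No paired analysis was possible because each group holds 1 library and the labels carry no replicate numbers, and for the same reason no library could be left out. Depth limits SP5, for which 5 to 21 reads do not resolve a difference between libraries.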
